A study of Mus musculus with 6 samples.

Results

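The genes followed here in E18.5 mouse hearts, 8 in all, were *Pkm*, which encodes the muscle pyruvate kinases PKM1 and PKM2, and 7 genes for RNA-binding proteins known to act on the choice between its alternative exons, *Ptbp1*, *Ptbp2*, *Ptbp3*, *Hnrnpa1*, *Hnrnpa2b1*, *Srsf3* and *Rbm4*. They were chosen by name, and all 8 were among the 13809 genes of the count table. The hearts came from wildtype (WT) embryos and from embryos homozygous for a deletion in the exon that only *Pkm1* uses (KO), with 3 libraries per genotype. The deletion was made in BDF1 hybrid zygotes with Cas9 and 1 guide RNA (sgRNA), and it puts a premature stop codon into the *Pkm1* transcript while the exon of *Pkm2* is left as it was; it is carried by every cell of the embryo. The tissue is named heart in the sample labels and ventricular tissue in the paper's text, and the RNA was total RNA depleted of ribosomal RNA. The libraries are called WT a, b and c and KO a, b and c in the order of the table's columns, which carry no replicate number.

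Pyruvate kinase makes pyruvate and ATP in the last step of glycolysis. The *Pkm* pre-mRNA holds 2 exons of equal length that exclude each other in the mature transcript, conventionally exon 9, which gives PKM1, and exon 10, which gives PKM2; PKM1 is the form of adult heart, skeletal muscle and brain, and PKM2 that of embryonic and dividing cells. The polypyrimidine tract binding protein PTBP1 and the heterogeneous nuclear ribonucleoproteins hnRNPA1 and hnRNPA2B1 bind around exon 9 and repress it, SRSF3 binds exon 10 and favours its use, and RBM4 acts against PTBP1 in muscle cells. A transcript with a premature stop codon can be removed by nonsense-mediated decay, for which exon junctions downstream of the stop are the mark.

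*Pkm* lies at chr9:59656368-59679375 on the plus strand of GRCm38, the assembly of the authors' mm10 build, and has 11 transcripts in the GENCODE annotation. Exon 9 is at chr9:59675029-59675195 and is in 2 of them, and the exon of *Pkm2* is at chr9:59675568-59675734 and is in 1. Each is 167 bases long and is the coding exon at position 9 of its own transcript of 11 exons, with 372 bases of intron between them. Both are printed because a read has to cover them to tell the isoforms apart. In the first, the capitals mark the 20 bases that the sgRNA targets and the 3 bases of its AGG motif (PAM), read on the plus strand.
Exon of *Pkm1*: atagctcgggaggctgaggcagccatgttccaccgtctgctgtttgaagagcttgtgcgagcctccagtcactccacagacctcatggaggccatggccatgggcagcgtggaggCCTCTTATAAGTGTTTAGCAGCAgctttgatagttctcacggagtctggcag
sgRNA, chr9:59675147-59675166 on the minus strand: tgctgctaaacacttataag
In the second, capitals mark the bases that differ from the *Pkm1* exon at the same position.
Exon of *Pkm2*: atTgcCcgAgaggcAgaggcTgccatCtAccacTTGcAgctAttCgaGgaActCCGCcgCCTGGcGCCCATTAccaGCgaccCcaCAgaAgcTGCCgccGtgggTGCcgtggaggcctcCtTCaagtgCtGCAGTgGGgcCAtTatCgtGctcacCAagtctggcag
The exons were identical at 103 of 167 positions (61.7%). The target lay at bases 119 to 138 of the *Pkm1* exon, in its last part, and matched nowhere else in the stretch that covers both exons.

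The intron on either side of the *Pkm1* exon carries letters that PTBP1 and hnRNPA1 are known to bind. The 100 bases before it are shown with TCTT, a PTBP1 motif, in capitals, and the 100 bases after it with TAGGG, an hnRNPA1 motif, in capitals.
Before the *Pkm1* exon, chr9:59674929-59675028: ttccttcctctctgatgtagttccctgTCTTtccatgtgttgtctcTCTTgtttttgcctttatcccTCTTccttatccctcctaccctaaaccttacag
After the *Pkm1* exon, chr9:59675196-59675295: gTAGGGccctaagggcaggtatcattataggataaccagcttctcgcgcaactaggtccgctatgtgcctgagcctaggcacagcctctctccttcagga
TCTT was found 3 times before the *Pkm1* exon, where 79.0% of the bases were pyrimidines, and on the sense strand it was not found in the 100 bases after that exon or on either side of the *Pkm2* exon. TAGGG began at base 2 after the *Pkm1* exon and had no other match on that strand in the 4 windows. Among 32851 windows of 100 bases from RefSeq promoters of GRCm38, 38.0% held TCTT, 2.79% held it 3 times or more and 7.63% held TAGGG. With either strand counted, 62.1% held TCTT and 14.6% held TAGGG. Only 0.256% of these promoter windows reached the pyrimidine share of the window before the *Pkm1* exon. They are therefore no matched background for TCTT, and do not say whether 3 matches are unusual before an exon. On the antisense strand TCTT had 1 match after the *Pkm2* exon, and TAGGG had 1 match before the *Pkm1* exon, 1 after it and 1 before the *Pkm2* exon. The motifs do not overlap each other, and a match describes letters, not binding.

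**Figure D1:**
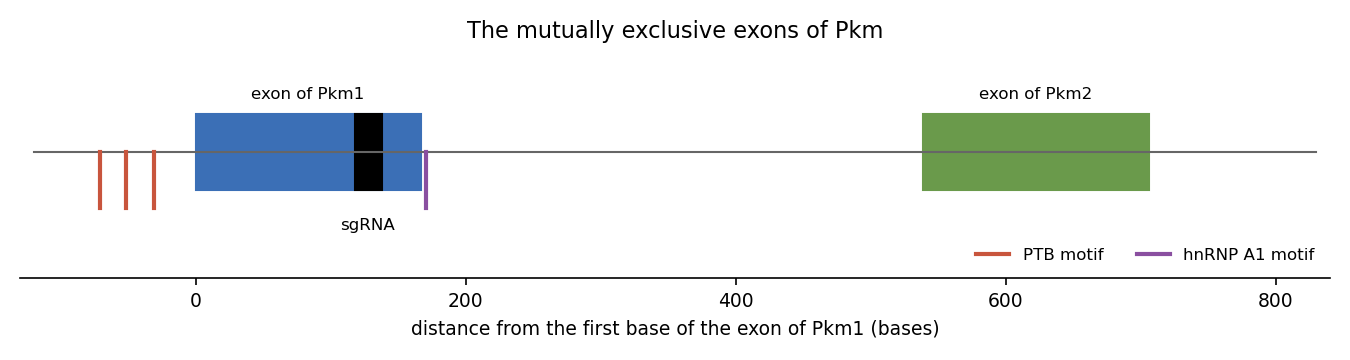
Map of the alternative exons of *Pkm*, with distance in bases from the first base of the *Pkm1* exon on the x axis. Boxes are exons of 167 bases, the black block is the sgRNA target at bases 119 to 138 of the *Pkm1* exon, and vertical lines are the 3 TCTT matches before that exon and the 1 TAGGG match after it, all on the sense strand.

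Library totals ran from 15567624 to 19875546 counts, so that 3 counts correspond to 0.153 to 0.197 CPM (counts per 1000000 of the library total, which was scaled with edgeR's TMM factors), a limit that covers counting error only. Over the 13804 genes that passed the filter on low counts, 30.3% differed between KO and WT at an adjusted p under 0.05, 15.7% lower and 14.6% higher, and in 42.4% the genotypes did not overlap. These shares are the background against which the counts below are read. WT c stood apart from the other WT libraries: the chi-square per degree of freedom of its counts against them was 3.23 and 3.75, against 1.56 to 1.88 for the other pairs within a genotype. No pair agreed within sampling noise, and the 6 libraries were counted separately. *Xist*, the RNA that coats the inactive X chromosome, was at 2285 ± 47.6 CPM in KO and at 5.26 ± 0.500 CPM in WT (SD, n = 3), and all 4 Y-linked genes listed were counted in every WT library and in no KO library. The sex of the embryos therefore went with genotype, and effects of sex and of the deletion cannot be told apart in any comparison below.

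*Pkm*, the targeted gene, was lower in KO hearts. Its level was 1294, 1296 and 1366 CPM in WT a, b and c and 547, 530.3 and 549 CPM in KO a, b and c. The 3 KO libraries lay close together and far under the WT libraries, with a gap of 745 CPM between the genotypes. The log2 fold change (KO minus WT throughout) came to -1.28 with a standard error (SE) of 0.0269 and a 95% interval from -1.34 to -1.23 (Benjamini-Hochberg adjusted p = 1.47e-23, quasi-likelihood test of edgeR), which puts KO at 41.1% of WT with an interval of 39.6% to 42.7%. Of the 13804 genes, 85 had a more negative log2 fold change and 8 had a smaller p-value. *Pkm* took 0.128% to 0.133% of all counts in WT and 0.0539% to 0.0558% in KO. These counts are per gene and do not separate *Pkm1* from *Pkm2* reads, so they do not say what share of the remaining KO counts came from either isoform or from transcripts with the deletion. In protein, the paper found PKM1 absent from KO hearts with no compensating rise of PKM2. Its discussion also mentions lower PKM2, possibly a secondary effect. Of the 50-base words in *Pkm* transcripts, 25.8% also occur in transcripts of other genes, 7 of them pseudogenes and 1, *Gm49759*, an unspliced transcript over the same exons; how the authors' counting treated such reads is not given in the sources used here. *Pklr*, the gene for the liver and red cell pyruvate kinase, had no value in the table used here.

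Among the 7 regulators, 3 passed the test: *Ptbp2* and *Hnrnpa2b1* were lower and *Srsf3* was higher in KO. With *Pkm*, 4 of the 8 genes passed, 3 lower and 1 higher, beside 30.3% of all genes tested, and in the same 4 the genotypes did not overlap, beside 42.4% of all genes. All 8 passed the filter on low counts. The changes of the regulators were small next to that of *Pkm*: their log2 fold changes ran from -0.16 to 0.20, with a median of -0.0036, beside a median of 0.0017 over all genes.

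*Ptbp1* (chr10:79854427-79864771, plus strand), the main repressor of the *Pkm1* exon in dividing cells, had 106, 104 and 108 CPM in WT and 104, 103 and 109.7 CPM in KO. The libraries of the genotypes were interleaved. The change was -0.0036 on the log2 scale (SE 0.0407, adjusted p = 0.957), and its 95% interval of -0.087 to 0.080 holds KO between 94.1% and 106% of WT. The direction of a difference this small changed with the scaling: from library totals alone it was 0.044. Exons of *Ptbp1* overlap genes on the opposite strand over 20.7% of their bases, and no source used here says whether counting was by strand.

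*Ptbp2* (chr3:119718742-119784466, minus strand), the paralogue that replaces PTBP1 as neurons differentiate, had 90.3, 79.9 and 75.2 CPM in WT and 73.5, 74.4 and 71.8 CPM in KO. WT a was the highest library, and WT c exceeded the highest KO library by 0.836 CPM, so the genotypes met almost without a gap. KO minus WT was -0.16 in log2 (SE 0.0531, 95% interval -0.27 to -0.053, adjusted p = 0.0219). The call did not hold without WT a (log2 fold change -0.087, adjusted p = 0.217), without KO a (-0.16, 0.0678) or KO c (-0.15, 0.0970), with DESeq2 (-0.16, 0.0537) or with library totals alone (-0.11, 0.113); without WT c it was -0.22 (adjusted p = 0.00013). Of the 9 neuronal markers listed, 3 had a value in the table, with 14 to 43 counts a library and a summed level of 4.75 to 5.06 CPM in WT and 3.34 to 4.74 CPM in KO. Of these 3, only *Stmn2*, which encodes a protein that binds tubulin in neurons, passed. It had 2.26, 2.19 and 2.63 CPM in WT and 1.22, 1.52 and 1.82 CPM in KO. Its log2 fold change of -0.63 (adjusted p = 0.0436) did not pass with DESeq2 (0.129), with library totals alone (0.0601) or without a library other than KO c (0.0643 to 0.182). *Elavl4* (0.47, adjusted p = 0.310) and *Dbh* (-0.48, 0.220) did not pass. The part of these markers in the result for *Ptbp2* was not tested. In bulk tissue, fewer cells of a type and less RNA per cell cannot be told apart.

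*Ptbp3* (chr4:59471868-59549364, minus strand), the third paralogue, best known from blood cells, had 118, 108 and 98.4 CPM in WT and 95.9, 109 and 105 CPM in KO. The genotypes overlapped, with WT c near the lowest KO library. A log2 fold change of -0.075 (SE 0.0533, 95% interval -0.18 to 0.035, adjusted p = 0.305) did not pass. Without WT c it was -0.14 and passed the test (adjusted p = 0.0074), so that 1 library decided on which side of the threshold the gene lay.

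*Hnrnpa2b1* (chr6:51460932-51469894, minus strand) had 506, 513 and 562 CPM in WT and 491, 493 and 489 CPM in KO. The KO libraries were nearly equal, WT c was the highest of all, and the lowest WT library exceeded the highest KO library by 12.5 CPM. In log2, KO minus WT was -0.10 (SE 0.0323, 95% interval -0.17 to -0.034, adjusted p = 0.0192). Without WT c it was -0.055 and did not pass (adjusted p = 0.0645), nor did it without KO a (-0.10, adjusted p = 0.0730), KO b (-0.10, 0.0555) or KO c (-0.10, 0.0710), with DESeq2 (-0.10, 0.0574) or with library totals alone (-0.052, 0.205).

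*Hnrnpa1* (chr15:103240432-103246692, plus strand), its close relative, had 11.9, 11.7 and 14.1 CPM in WT and 12.9, 13.9 and 12.2 CPM in KO. The highest and the lowest library were both WT. Between genotypes the log2 fold change was 0.050 (SE 0.0966, 95% interval -0.15 to 0.25, adjusted p = 0.736), and without WT b it was -0.0020. Words of 50 bases shared with 19 pseudogenes and 1 other gene made up 28.2% of *Hnrnpa1* transcripts, reads that the authors' counting could split or drop, so its level is uncertain.

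*Srsf3* (chr17:29032628-29043373, plus strand), which encodes an SR protein (a splicing factor with a domain rich in serine and arginine), was the regulator that rose. It had 163, 169.5 and 160.3 CPM in WT and 190.0, 189 and 186 CPM in KO. Every KO library lay above every WT library, with a gap of 16.5 CPM. This was a log2 fold change of 0.20 (SE 0.0348, 95% interval 0.12 to 0.27, adjusted p = 9.72e-05). It passed the test under all 16 alternatives, with log2 fold changes of 0.18 to 0.24, and was 0.22 without WT c. Of the 8221 words of 50 bases in its transcripts, 825 also occur in transcripts of other genes.

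*Rbm4* (chr19:4784293-4793901, minus strand), whose protein is known to promote the *Pkm1* exon in differentiating cells, had 6.08, 4.95 and 5.72 CPM in WT and 6.68, 5.18 and 6.33 CPM in KO, or 82 to 126 counts a library. The genotypes overlapped. Its log2 fold change was 0.13 (SE 0.141, 95% interval -0.16 to 0.42, adjusted p = 0.514), the widest interval of the 8 genes, which holds KO between 89.7% and 134% of WT. *Gm21992*, a readthrough gene on the same strand, covers 60.5% of its exonic bases, so its counts are uncertain.

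**Figure D2:**
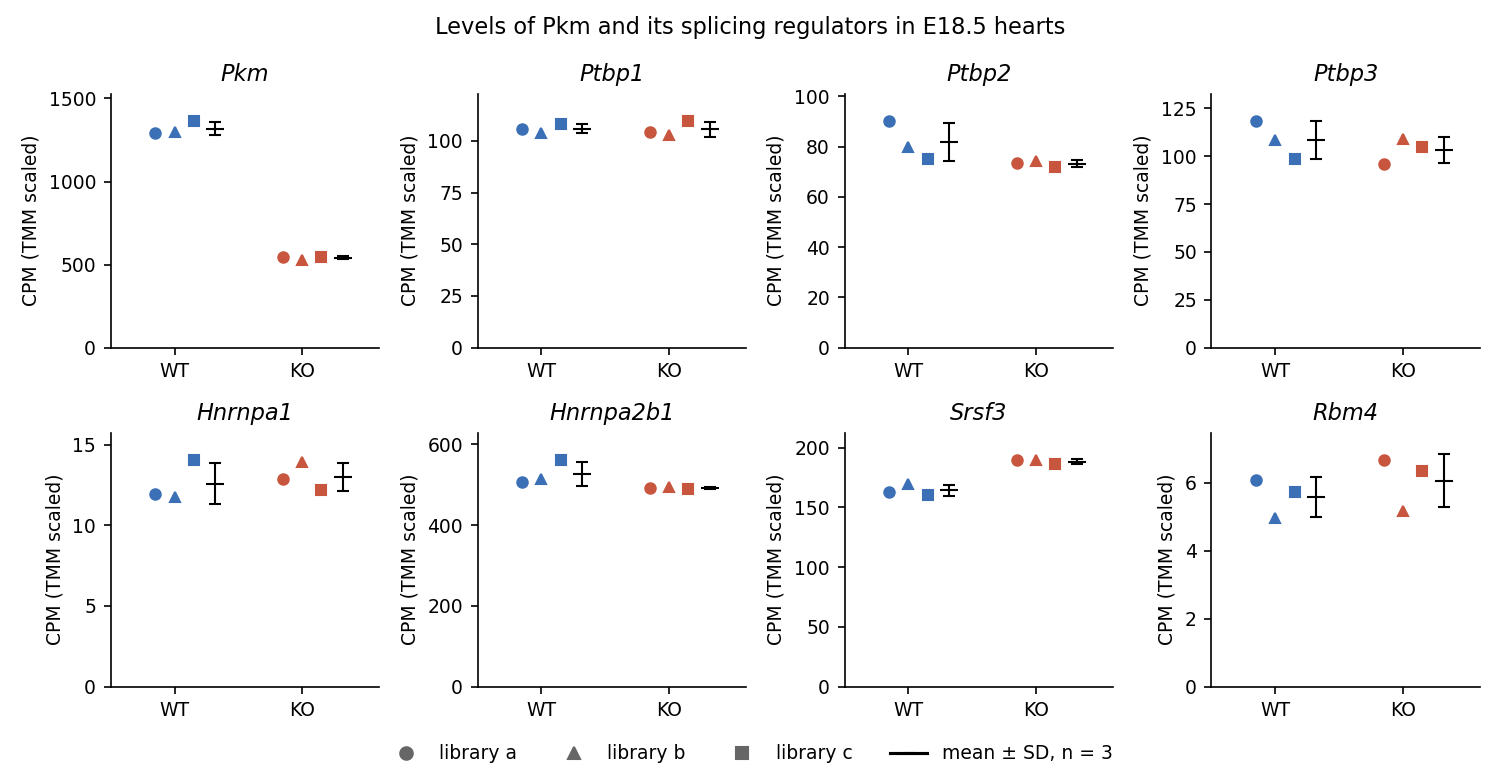
Level of each of the 8 genes in CPM after TMM scaling (y axes, from 0, each with its own range) in the WT and KO libraries (x axes). Symbols are libraries a, b and c, and the bar beside them is the mean with SD, n = 3. *Pkm* is at 530.3 to 549 CPM in KO against 1294 to 1366 in WT, *Srsf3* is higher in every KO library, and *Ptbp1* is interleaved.

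**Figure D3:**
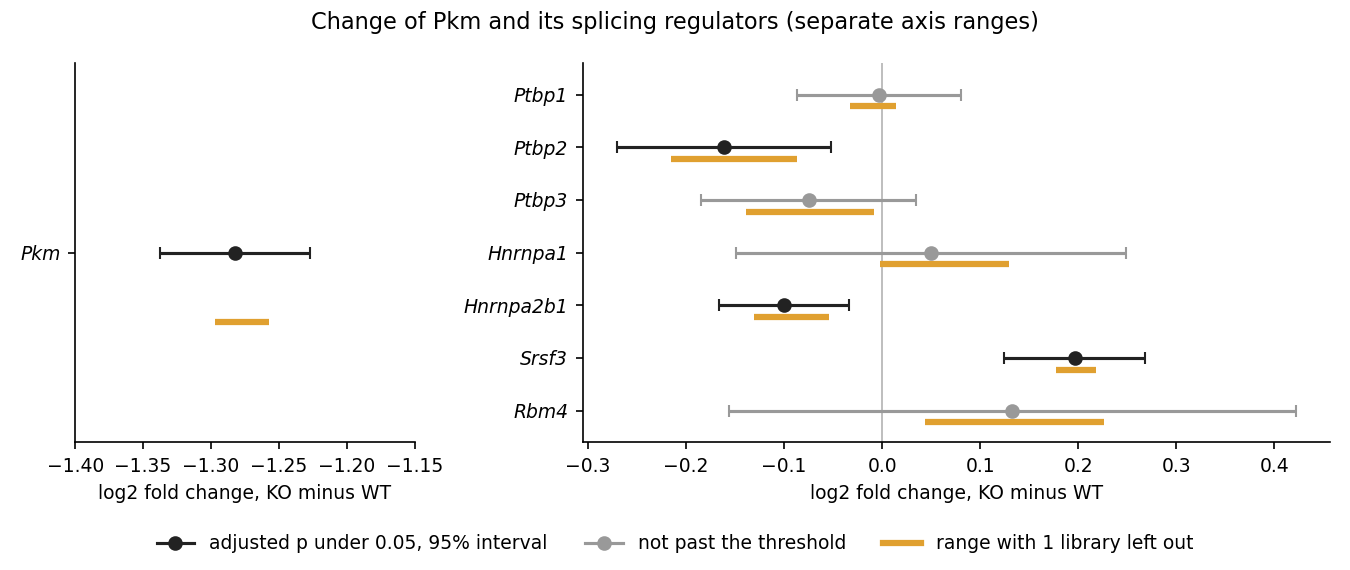
Log2 fold change, KO minus WT (x axis), of *Pkm* on the left and of its 7 regulators on the right, on separate ranges. Points and black or grey bars are estimates with 95% intervals from edgeR's quasi-likelihood fit, black where the adjusted p was under 0.05, and orange bars are the range with 1 library left out. *Pkm* is at -1.28, and the regulators lie between -0.16 and 0.20.

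Levels can be compared between genes only per length, here as TMM-scaled CPM per kilobase of the union of a gene's exons. In WT hearts *Pkm* was first at 263.6 ± 8.22, followed by *Hnrnpa2b1* at 80.0 ± 4.60, *Ptbp1* at 22.3 ± 0.481, *Srsf3* at 20.8 ± 0.597, *Ptbp3* at 14.5 ± 1.35, *Ptbp2* at 8.92 ± 0.840, *Hnrnpa1* at 3.99 ± 0.409 and *Rbm4* at 1.13 ± 0.117 (SD, n = 3). In KO hearts the order was *Pkm* at 108 ± 2.02, *Hnrnpa2b1* at 74.6 ± 0.298, *Srsf3* at 23.9 ± 0.267, *Ptbp1* at 22.3 ± 0.776, *Ptbp3* at 13.8 ± 0.895, *Ptbp2* at 7.98 ± 0.143, *Hnrnpa1* at 4.12 ± 0.273 and *Rbm4* at 1.23 ± 0.159. No neighbours in either order overlapped between their 3 libraries, and *Ptbp1* and *Srsf3* changed places between the genotypes. The places of *Hnrnpa1* and *Rbm4* are uncertain, because 28.2% and 57.5% of their 50-base words also occur in transcripts of other genes. Among 13713 genes with a length, *Pkm* was 78th in WT and 270th in KO, *Hnrnpa2b1* 402nd and 399th, and *Rbm4* 11392nd and 11312th. The order depended on the length used: with the longest coding transcript in place of all exons, *Hnrnpa2b1* (284 ± 1.14) came before *Pkm* (223 ± 4.16) in KO, *Srsf3* came before *Ptbp1* in both genotypes so that their exchange was lost, and 8 of the 16 places were kept.

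The paralogues *Ptbp1* and *Ptbp2*, whose proteins bind similar sequences, were compared within each library. Per length of all exons, the ratio of *Ptbp1* to *Ptbp2* was 2.27, 2.51 and 2.78 in WT and 2.74, 2.67 and 2.96 in KO. The genotypes overlapped, with WT c inside the range of KO. The mean ratio was 2.52 ± 0.257 in WT and 2.79 ± 0.148 in KO (SD, n = 3), and per length of the longest coding transcript it was 1.55 ± 0.158 and 1.72 ± 0.0909. As shares of the 3 *Ptbp* genes per length of all exons, *Ptbp1* took 46.5% to 51.7% in WT and 48.9% to 51.5% in KO, and *Ptbp2* 18.6% to 20.5% and 17.4% to 18.7%. *Ptbp1* was thus the most abundant of the 3 per length in every library.

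The 5 genes whose pattern over the 6 libraries was nearest to that of *Pkm* were *Gm16907* (root mean square difference of centred log2 CPM 0.0377), *Cited2* (0.0534), *Per1* (0.0540), *Myc* (0.0622) and *Fosl2* (0.0732), out of 9494 genes at 10 CPM or more on average. *Cited2* encodes a transcriptional coregulator, *Per1* a repressor of the circadian clock, *Myc* a transcription factor of growing cells and *Fosl2* a subunit of AP-1; *Gm16907* has only a gene model name. Their log2 fold changes were -1.34, -1.23, -1.38, -1.22 and -1.38. Since the difference between genotypes makes up most of the pattern, the list holds genes that were lower in KO by a similar amount. With Pearson's correlation as the measure, 0 of these 5 genes were among the first 5.

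Other genes linked to *Pkm* splicing were read from a list of 6, of which 2 were lower and 1 was higher, beside 15.7% and 14.6% of all genes. *Myc*, whose protein is known to raise transcription of the PTBP1, hnRNPA1 and hnRNPA2B1 genes in tumour cells, had 51.5, 55.4 and 56.0 CPM in WT and 22.3, 23.9 and 23.9 CPM in KO. Every KO library was under every WT library, and KO minus WT was -1.22 in log2 (SE 0.0606, adjusted p = 6.96e-15). *Nek2*, a kinase that binds hnRNPA1 and hnRNPA2B1, was lower by a log2 fold change of -0.24 (adjusted p = 0.0037). *Khdrbs1*, which encodes the RNA-binding protein Sam68, was higher at 0.12 (adjusted p = 0.0189), a call lost without WT b (adjusted p = 0.122) or without KO b (0.125). *Rbm4b*, *Phb2* and *Rbmx* did not pass, at 0.096, 0.060 and 0.030.

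Of 22 other hnRNP genes, 6 were lower and 1 was higher, 31.8% beside 30.3% of all genes, and their median was -0.057 in log2. The lower genes were led by *Hnrnpa3* (log2 fold change -0.41, SE 0.0566, adjusted p = 2.96e-06), a relative of *Hnrnpa2b1* and *Hnrnpa1*. It had 96.5, 98.2 and 80.9 CPM in WT and 68.1, 67.1 and 72.5 CPM in KO. *Hnrnph2*, which lies on the X chromosome, was at -0.27 and *Hnrnpul1* at -0.21. The gene that rose was *Hnrnph1*, at 0.094 (adjusted p = 0.0252), and it did not pass with DESeq2 (0.0602), without WT b (0.0933), without KO a (0.116) or without KO b (0.0753).

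SR protein genes moved in both directions. Of 12 in the list, 11 were tested, with 2 lower and 3 higher, 45.5% beside 30.3% of all genes. Their median was 0.018. *Srsf6* (log2 fold change 0.25, adjusted p = 9.26e-06), *Srsf7* (0.21, 0.0019) and *Srsf2* (0.13, 0.0094) rose, as *Srsf3* did, and *Srsf5* (-0.31, adjusted p = 1.34e-07) and *Srsf10* (-0.16, 0.0049) fell. *Srsf5* had 225, 226 and 244 CPM in WT and 186, 187 and 186 CPM in KO, with no overlap. The calls of *Srsf2* without KO b (adjusted p = 0.0616) and of *Srsf10* without KO a (0.0696) were lost. Of the 7 kinases that phosphorylate SR proteins, 1 passed, 14.3% beside 30.3% of all genes. It was *Clk3*, at -0.27 (SE 0.0551, adjusted p = 0.00056), with 57.7, 58.2 and 58.5 CPM in WT and 44.3, 50.3 and 50.6 CPM in KO.

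Splicing factors typical of muscle and heart were lower where they changed. Of 13 tested, 5 were lower and 0 higher (0 higher also with DESeq2, and with library totals alone *Rbm20* was called higher at 0.086), beside 15.7% and 14.6% of all genes; the median of all 13 was -0.014. At an unadjusted p under 0.05, 0 of the 13 were higher and 6 were lower. *Rbfox1* was at -0.32 (adjusted p = 0.0053), *Rbm24*, needed for sarcomere assembly, at -0.25 (2.52e-07), *Rbfox2* at -0.21 (5.71e-06), *Mbnl2* at -0.16 (0.0013) and *Mbnl1* at -0.14 (0.0035), which did not pass with library totals alone (0.0523). *Rbm24* had 423, 416 and 433 CPM in WT and 365, 353 and 354 CPM in KO. *Rbm20*, the regulator of titin splicing, did not pass, at 0.038 (adjusted p = 0.298). Among 7 markers of cardiomyocytes, 5 were lower and 1, *Myh7*, was higher (0.049, adjusted p = 0.0268), beside 15.7% and 14.6% of all genes. The median of these markers was -0.24, beside -0.014 for the 13 splicing factors. Their summed level was 46265 to 49912 CPM in WT and 42158 to 43108 CPM in KO. The part of this difference in the results for splicing factors was not tested. The other marker lists were mixed, again beside 15.7% lower and 14.6% higher of all genes. Lower were 3 of 5 endothelial and 3 of 6 fibroblast markers. Of 6 atrial markers, 3 were higher, *Myl4* (log2 fold change 1.10), *Myl7* (0.75) and *Nppa* (0.68). *Nr2f2* (0.059), *Nr2f1* (-0.23) and *Stard10* (-0.086) did not pass. The part of the higher *Myl4*, *Myl7* and *Nppa* in other results was not tested. Higher were 2 of 4 epicardial and 1 of 2 erythroid markers, and smooth muscle had 1 of 4 in each direction. Of 6 cycling cell markers, 1 (*Mki67*) was lower, and at an unadjusted p under 0.05 of edgeR's test 3 were lower and 0 higher. Of 5 immune markers, 0 passed edgeR's test, with 0 at an unadjusted p under 0.05.

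Genes of nonsense-mediated decay and of the exon junction complex, which act on transcripts with a premature stop codon, changed in both directions. Of 16 tested, 5 were higher and 1 was lower, beside 14.6% and 15.7% of all genes, with a median of 0.078 in log2. *Upf2* (0.29, SE 0.0618, adjusted p = 0.00085) had 35.0, 34.8 and 35.0 CPM in WT and 46.5, 41.4 and 39.8 CPM in KO. *Smg5* was at 0.26 (adjusted p = 0.00015), *Upf3b*, which lies on the X chromosome, at 0.25 (0.0140), *Upf1*, the helicase at the centre of the pathway, at 0.20 (0.00062) and *Casc3* at 0.15 (0.0364). *Upf1* had 102, 97.4 and 92.6 CPM in WT and 109.7, 114 and 112 CPM in KO, every KO library above every WT library. *Rbm8a*, a core subunit of the exon junction complex, was lower at -0.22 (adjusted p = 0.0204), though its libraries overlapped, and it did not pass without WT c (-0.13, adjusted p = 0.105), KO b (-0.22, 0.0578) or KO c (-0.16, 0.167), or with library totals alone (-0.18, 0.0626). With DESeq2, 3 of the 5 higher genes passed; *Upf3b* (adjusted p = 0.0504) and *Casc3* (0.0940) did not. *Upf3b* did not pass without WT b (adjusted p = 0.0967), KO a (0.0530) or KO b (0.0642) either, and *Casc3* passed without WT c (adjusted p = 0.0016) but not without any other library (0.0619 to 0.224).

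**Figure D4:**
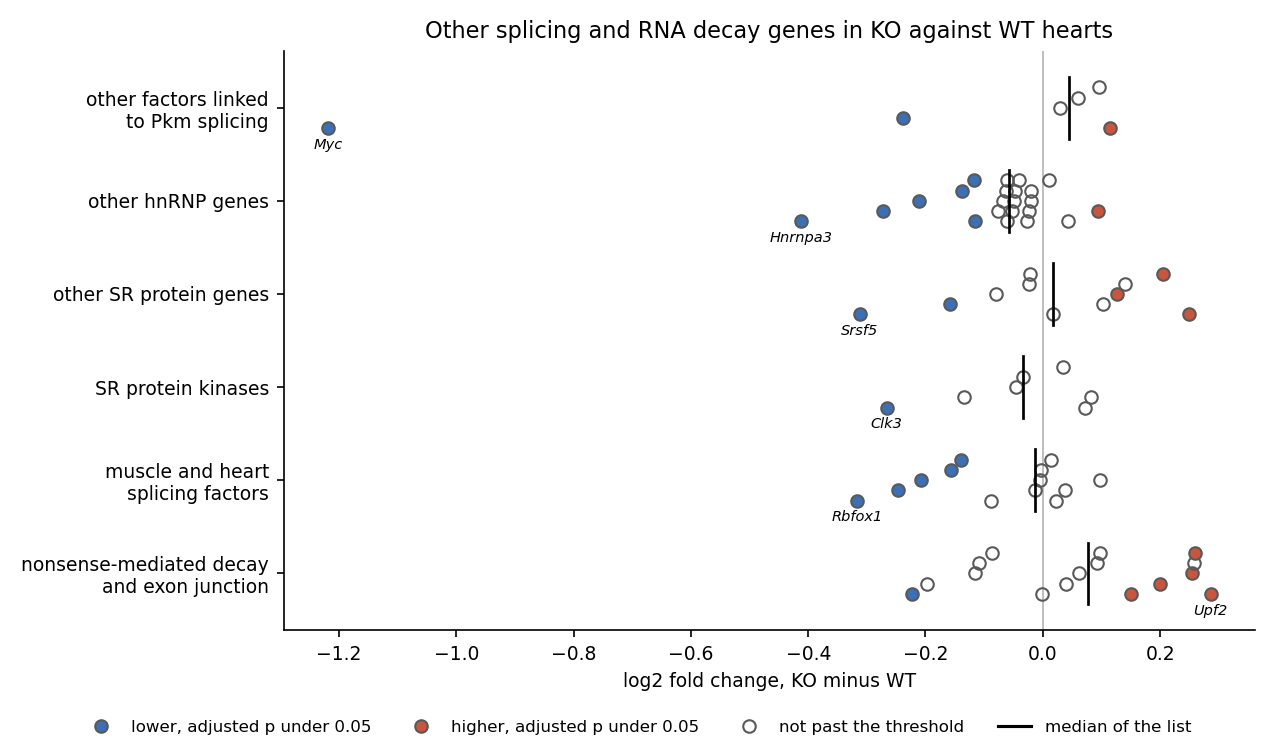
Log2 fold change, KO minus WT (x axis), of every tested gene in 6 lists of splicing and RNA decay genes (rows, with vertical spread only to separate points). Blue and red points passed edgeR's quasi-likelihood test at an adjusted p under 0.05, open points did not, black lines are list medians, and the gene with the largest change in each list is named. *Myc*, at -1.22, lies far from the others, which are between -0.41 and 0.29.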

How the data were processed

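RNA was measured in hearts of WT and KO embryos at E18.5, with 3 libraries per genotype, which the methods call biological replicates. The sample titles and the methods do not say whether a library was made from 1 heart or several. Spreads and p-values are therefore between libraries. The table that the authors deposited holds read counts for each gene symbol, not normalized, in a column for each library that names the genotype but no replicate. The submitters' processing notes name cutadapt 1.18, HISAT2, StringTie and mm10, and the counting program is not given in the sources used here. Further columns hold the authors' own edgeR comparison (fold changes and average levels in log2, p-values, false discovery rates), and none of these were used. Totals ran from 15567624 to 19875546 counts, and *Rn45s*, a ribosomal RNA gene, took 2.21% to 2.79% of them.

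For the comparison, edgeR 4.0.16 in R 4.3.3 was used: genes were filtered with filterByExpr (13804 of 13809 kept), TMM factors were computed, and genotype alone was fitted and tested by quasi-likelihood. P-values were adjusted over all 13804 genes by the method of Benjamini and Hochberg, and calls were made at an adjusted p under 0.05. Adjusted p-values in the text come from this test unless another is named. Standard errors and 95% intervals are from the same fit. Log2 CPM used a prior count of 2. The script was tested on simulated data. Alternatives were RLE size factors, library totals alone, TMM without *Rn45s*, all genes without a filter, genes with 10 or more counts in each library, DESeq2 1.42.0, the likelihood ratio and exact tests of edgeR, voom of limma 3.58.1, genes on X and Y left out, and each library left out in turn. Exons, gene lengths and sequences were read from the GENCODE annotation and transcripts of GRCm38, the intron bases from the unspliced transcript *Gm49759*, the sgRNA from the study's supplement, and promoter windows from RefSeq. *Qki* was matched to the table as *Qk*, and *Srsf12*, *Rbfox3* and *Pklr* had no value in the table used here. In each list the called genes with the 3 largest changes are named, and all where up to 5 were called. The genes and the lists were chosen with earlier results of these data known, so a count over a list is no independent evidence. Plots used matplotlib 3.10.9 in Python 3.11.15.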

Additional observations from a re-analysis of the deposited data

How the results depend on the processing

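Of the 8 genes, *Pkm* and *Srsf3* passed the test under all 16 alternatives; with each library left out in turn, their log2 fold changes ran from -1.30 to -1.26 and from 0.18 to 0.22. *Ptbp2* lost its call with library totals alone (-0.11) and DESeq2 (-0.16), and ran from -0.22 to -0.087 with a library left out. *Hnrnpa2b1* lost its call with library totals alone (-0.052) and DESeq2 (-0.10), and ran from -0.13 to -0.055. *Ptbp3* ran from -0.14 to -0.0087 and passed only without WT c. *Ptbp1* ran from -0.033 to 0.014 and changed direction with library totals alone (0.044), and *Hnrnpa1* ran from -0.0020 to 0.13; neither passed under any alternative, nor did *Rbm4*. The cause of these changes was not tested, except that a fit without a library has fewer samples and that library totals alone moved the median over all genes from 0.0017 to 0.049 in log2. The numbers of genes lower and higher, 2168 and 2011, became 1639 and 1362 with DESeq2 and 1527 and 2911 with library totals alone, and ran from 1704 to 2306 and from 1479 to 2013 with a library left out. The 6 lists together had 27 called genes, and 21 to 32 over the alternatives. With the longest coding transcript as length, 8 of the 16 places by level were kept, and the ratio of *Ptbp1* to *Ptbp2* was 1.55 in WT and 1.72 in KO; with a library left out it ran from 2.39 to 2.65 and from 2.71 to 2.85. Of the 5 genes most like *Pkm*, 0 were kept with Pearson's correlation and 4 to 5 with a library left out. Among the named list genes, *Stmn2* and the counts of single lists, 642 values kept their direction and side of the threshold (counts within 1.5 times), 49 were weaker, 9 stronger and 1 moved from a count of 0. No paired analysis was possible because no replicate number stands in the names of the count columns. Low counts limit *Rbm4* and *Hnrnpa1* most, at 82 to 126 and 206 to 243 counts a library.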
